A study of Mus musculus with 8 samples.

Results

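Vehicle-treated bone marrow-derived macrophages (BMDM) were examined on their own, to describe which transcripts these cells held at baseline and how far cultures of separate mice differed. Members were the libraries labelled as vehicle control, which were 4 of the 8 libraries of the series. The mice were Balb/CJ females, 8 weeks old, and their leg bone marrow, cleared of red cells, was cultured for 5 days with macrophage colony-stimulating factor (M-CSF, 25 ng/mL). The cells then received the vehicle, dimethyl sulfoxide (DMSO), for 48 h before RNA extraction and poly-A selection, so they were not untreated. The other 4 libraries came from the same mice, received 2.5 µM bilirubin in place of vehicle, and were not used here. Each mouse gave 1 vehicle culture, named culture 1 to culture 4 after the number of the mouse pair in the labels, so that differences between mice and differences between dishes cannot be told apart. With 1 group there was no contrast between groups to test, and spread is given as SD or as a fold over the 4 cultures. Beside the 3 highest and the undetected members of each gene list, further members were named for their known roles after their values had been seen. The RNA was from whole cultures, in which fewer cells of a type and less RNA per cell cannot be told apart.

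Macrophages are phagocytes that take up dying cells, microbes and aged red cells and break them down in lysosomes. Their survival and growth depend on M-CSF, which acts through the receptor CSF1R, and on the transcription factor PU.1. Iron freed from engulfed heme is stored in ferritin or exported. Without further signals, cultured macrophages hold a resting state, which interferon and microbial products turn towards inflammatory (classical) activation and interleukin-4 towards alternative activation.

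The vehicle libraries held between 37747315 and 47071714 estimated counts on genes. Levels are given as TPM, in which counts are divided by transcript length and each library is scaled to the same total, summed over the transcripts of a symbol. At the median effective length of transcripts at 1 TPM or more, 1 TPM stood for 36.3 to 44.1 counts. Of 53819 symbols, 11425 (21.2%) were at 1 TPM or more in all 4 libraries, called detected here, and 30270 were at 0 in all of them. Among the 21610 symbols annotated as protein coding, 10465 (48.4%) were detected, and this share is the background for the counts of list members given here. Across the 11425 detected genes, log2 TPM of culture 1 correlated with that of the other cultures at Pearson's r of 0.991 in each case, against 0.993 to 0.994 among cultures 2 to 4. These values are across genes, which are not independent replicates.

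The macrophage label was checked first against 5 defining markers, all of which were high in every culture. *Lyz2*, lysozyme, was at 25914, 26056, 26057 and 25915 TPM in cultures 1 to 4. *Csf1r*, the M-CSF receptor, was at 842, 792, 779.9 and 849.6 TPM. *Adgre1*, a surface receptor that marks mouse macrophages, was at 338, 335, 321 and 335 TPM and *Itgam*, the integrin CD11b, at 304, 299.9, 297 and 289.6 TPM. *Cd68*, a lysosomal glycoprotein, was at 2919, 2678, 2737 and 2688 TPM. The fold between the highest and lowest culture lay between 1.01 for *Lyz2* and 1.09 for *Cd68* and *Csf1r*. The female label also held in all 4 libraries, since *Xist* was at 74.8, 41.4, 69.8 and 67 TPM while the Y-linked *Ddx3y*, *Eif2s3y*, *Kdm5d* and *Uty* were listed at 0.

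A small number of genes made up much of the RNA. The 20 symbols with the highest mean TPM held 23.8% ± 0.345 (SD, n = 4) of all TPM, and the top 100 held 39.4% ± 0.401. Both ferritin subunits led the list, *Ftl1* (light chain, chromosome 7, 45107367 to 45109308, - strand) at 42202, 43788, 43515 and 42655 TPM and *Fth1* (heavy chain, chromosome 19, 9957911 to 9962462, + strand, both GRCm39) at 38005, 42326, 42446 and 36686 TPM. Together they held 8.29% ± 0.363 of TPM, and *Fth1* was higher in cultures 2 and 3 than in 1 and 4. Lysozyme (*Lyz2*) followed them. Of the top 20 symbols, 7 were encoded by the mitochondrial genome, led by *mt-Atp8* (10675, 12318, 13346 and 14370.3 TPM) and *mt-Co1* (13012, 12609, 11987 and 11902 TPM). The first was lowest in culture 1 and the second highest there. The longest *mt-Atp8* transcript has 204 bases, and because TPM divides by length, its level is less certain than that of longer transcripts. Another 5 of the top 20 were lysosomal, namely *Lyz2*, the cathepsins *Ctsd*, *Ctsl* and *Ctsb*, and *Gpnmb*, a lysosomal membrane glycoprotein.

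The cathepsins are proteases that degrade engulfed protein. *Ctsd* was at 11280.2, 11642, 10991 and 10341 TPM, *Ctsb* at 6819, 6998, 6864 and 6706 TPM and *Ctsl* at 7271, 8864, 9647 and 7406 TPM. Among them *Ctsl* varied most, and its values in cultures 2 and 3 were above those in 1 and 4. *Apoe*, a lipid carrier that macrophages secrete, was at 7169.9, 5744, 6005 and 6357 TPM and was highest in culture 1. The remaining members of the top 20 were *Actb* (8783 ± 496 TPM) and *Tmsb4x* (6002 ± 462 TPM), which build and buffer actin, the elongation factor *Eef1a1* (5129 ± 108 TPM), *Spp1* or osteopontin (4693 ± 289 TPM), a secreted matrix and signalling protein, and *Gm28661* (8843 ± 412 TPM), annotated as an unprocessed pseudogene.

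**Figure D1:**
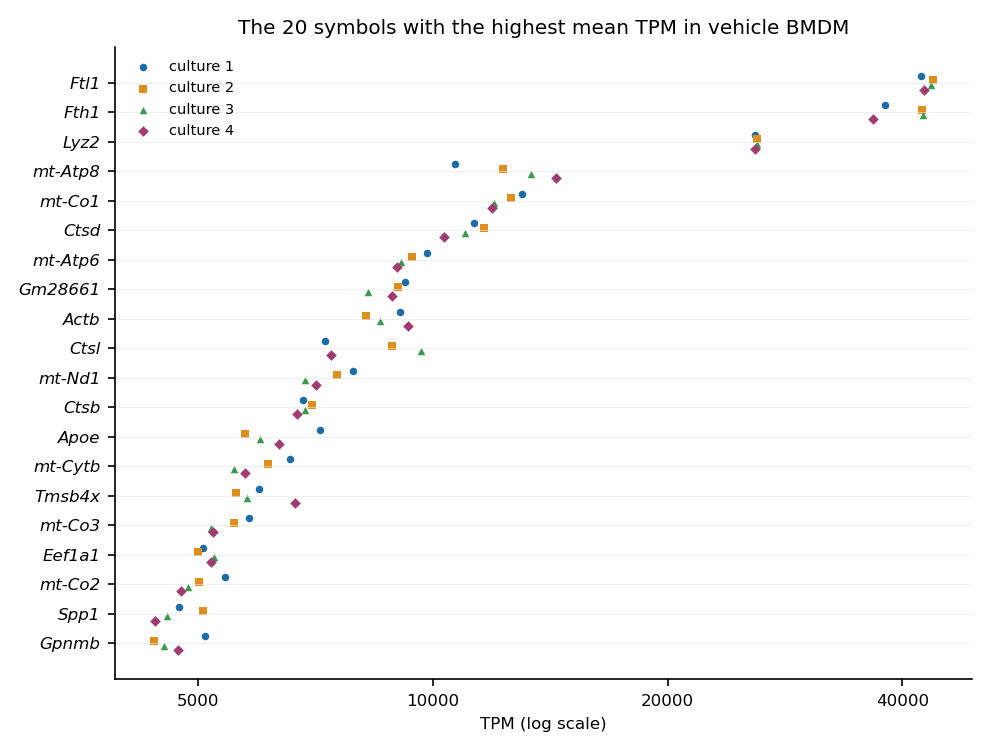
The 20 symbols with the highest mean TPM in vehicle BMDM, with TPM on a log scale on the horizontal axis and 1 point per culture. *Ftl1* and *Fth1* lie at 36686 TPM or more in every culture, and the 4 values of *Lyz2* almost coincide, whereas *mt-Atp8* runs from 10675 to 14370.3 TPM.

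Some of these levels rest on sequence that several symbols share. All 651 stretches of 31 bases in the leading transcript of *Gm28661* also occur in *mt-Co2*, subunit 2 of cytochrome c oxidase, so the split between the pair is uncertain, and their sum was 13852 ± 639 TPM. Likewise *mt-Atp6* shared 99.5% of its 31-base stretches with *Gm10925* and *mt-Co3* shared 99.9% with *Gm28437*. *Ftl1* shared 85.3% with other symbols, chiefly *Ftl1-ps1*, *Eef1a1* 72.3% and *Gapdh* 89.8%. The annotated transcripts of *Gm49368* hold 72.1% of the *Itgam* stretches, and those of *Gm49369* 37.1% of the *Ctsd* stretches. By contrast, no stretch of *Hmox1*, *Apoe*, *Cd68* or *Ctsl* occurred under another symbol.

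Heme and iron genes formed a large share of these transcriptomes. Of 30 listed genes, 23 were detected, and the list summed to 87828 ± 3935 TPM, most of it ferritin. *Hmox1* (chromosome 8, 75820241 to 75827217, + strand, GRCm39), which encodes the inducible heme oxygenase (HO-1) that opens the heme ring to give biliverdin, iron and carbon monoxide, was at 2302, 2769, 2592 and 2060.2 TPM. It ranked 42 of all symbols, and cultures 2 and 3 were again above 1 and 4, with a fold of 1.34 between the highest and lowest culture. *Hmox2*, the constitutive heme oxygenase, was lower, at 150.4, 136, 151 and 154 TPM, so that the ratio of *Hmox1* to *Hmox2* was 16.6 ± 3 on the TPM scale. Both biliverdin reductases, which turn biliverdin into bilirubin, were present, *Blvra* at 202, 185, 192 and 218 TPM and *Blvrb* at 290.4, 301, 319 and 312 TPM. The cultures held transcripts for each step from heme to bilirubin. *Ugt1a1*, which conjugates bilirubin in the liver, was at 1.52, 0.469, 0.404 and 0.688 TPM, passing 1 TPM in culture 1 alone, and it shared 71.5% of its 31-base stretches with *Ugt1a2*.

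Transporters of heme and iron were detected at lower levels. *Slc48a1*, which carries heme out of the phagolysosome, was at 464, 519, 481 and 443 TPM and *Slc11a1*, a metal transporter of the phagosome membrane, at 558, 553, 533 and 531 TPM. *Slc40a1* (ferroportin), the iron exporter, was at 59.8, 59.6, 49.9 and 47.4 TPM, with cultures 1 and 2 above cultures 3 and 4. *Tfrc*, the transferrin receptor for iron uptake, was at 179, 160.1, 181 and 191 TPM. *Slc11a2*, the transporter that moves iron out of endosomes, was at 22.7, 22.8, 32.4 and 21.6 TPM, and the value of culture 3 stood above the other three. The heme exporter *Flvcr1* ranged from 34.2 to 39.8 TPM and *Abcc1*, an efflux pump, from 71.4 to 80 TPM. *Ncoa4*, the receptor that delivers ferritin to lysosomes, was at 77.2 ± 3.87 TPM and the endosomal ferric reductase *Steap3* at 18.3 ± 0.68 TPM.

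Of the enzymes of heme synthesis, those outside the erythroid lineage were detected, namely *Alas1* at 118 ± 3.66 TPM, *Alad* at 65.8 ± 3.09 TPM, *Fech* at 64.1 ± 1.44 TPM, *Cpox* at 11.9 ± 0.684 TPM and *Ppox* at 10.3 ± 0.968 TPM. The erythroid enzyme *Alas2* was listed at 0 in every culture, as was the iron hormone *Hamp*. For *Alas2*, 3 counts would have given 0.116 TPM in the shallowest library, which bounds what a count of 0 allows for counting error only. *Aco1* and *Ireb2*, which encode the iron regulatory proteins, were at 32.6 ± 1.44 and 17.7 ± 0.601 TPM, and *Bach1*, a heme-binding repressor of *Hmox1*, was at 30.2 ± 0.792 TPM. The hemoglobin scavenger receptor *Cd163* stayed below 1 TPM, at 0.501, 0.426, 0.326 and 0.78 TPM. The plasma heme and hemoglobin carriers *Hpx* (0.216 to 0.614 TPM) and *Hp* (0.932 to 1.28 TPM) and the siderophore binder *Lcn2* (0.0662 to 0.323 TPM) were near or below that level.

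**Figure D2:**
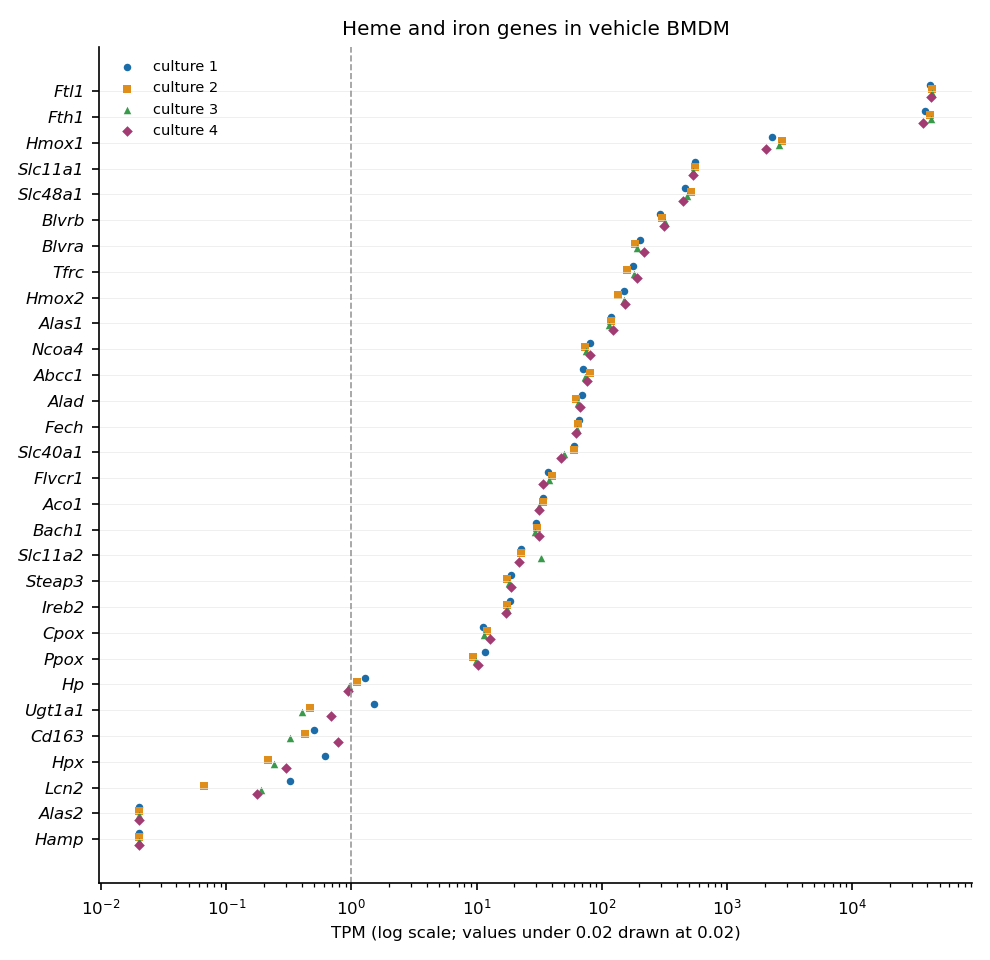
TPM of the 30 heme and iron genes in each vehicle culture, on a log scale, ordered by mean. The dashed line marks 1 TPM, and genes from *Ftl1* to *Ppox* lie to its right in all 4 cultures, whereas *Alas2* and *Hamp* are at 0.

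Several of these transcripts carry iron-responsive elements, hairpins in untranslated regions that iron regulatory proteins bind when iron is low, blocking translation from a 5′ element and stabilizing the message from 3′ elements. The elements are shown because ferritin, the most abundant message here, is known to be controlled at that step, so that its TPM does not give its protein level. In the leading transcripts (those with the highest mean TPM of their gene), a script searched for CNNNNNCAGTG followed by 1 base and by 5 bases able to pair, allowing G with T, with the 5 bases marked N. Such a match was found in the 5′ untranslated region of 15 of 9662 detected leading transcripts (0.155%) and in the 3′ region of 73 of 9704 (0.752%). Among the 23 detected heme and iron genes, 3 held it in the 5′ region and 1, *Tfrc*, in the 3′ region, where it occurred 4 times. A match is a description of the letters and not of binding. These sites are printed 5′ to 3′ as DNA, with the bulged C and the CAGTG of the loop in capitals.
Ftl1 5′ element, minus strand: gtcttgCttcaaCAGTGtttgaacggaaca
Fth1 5′ element, plus strand: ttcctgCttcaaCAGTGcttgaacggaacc
Slc40a1 5′ element, minus strand: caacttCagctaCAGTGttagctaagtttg
Tfrc 3′ element 1, plus strand: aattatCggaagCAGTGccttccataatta
Tfrc 3′ element 2, plus strand: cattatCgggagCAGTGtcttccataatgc
Tfrc 3′ element 3, plus strand: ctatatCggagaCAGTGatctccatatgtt
Tfrc 3′ element 4, plus strand: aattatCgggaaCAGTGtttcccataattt

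In GRCm39, the *Ftl1* element lies at chr7:45109202-45109231, the *Fth1* element at chr19:9960096-9960125 and the *Slc40a1* element at chr1:45964624-45964653, all in exons of the 5′ untranslated region. The *Tfrc* elements lie at chr16:32450037-32450066, chr16:32450416-32450445, chr16:32450481-32450510 and chr16:32450528-32450557, in the 3′ untranslated region.

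Lysosomal genes were detected without exception. All 42 listed members passed 1 TPM in every culture, 34 of them had a mean of at least 100 TPM, and their sum of 81183 ± 1727 TPM was 8.12% of the total. Beside the cathepsins of the top 20, *Ctss*, a protease of endosomes, was at 3219.5, 3234, 3401 and 3324 TPM. *Psap*, the precursor of the saposins that aid lipid breakdown, was at 3799, 3889, 3641 and 3599 TPM and *Grn*, progranulin, at 1550.3, 1494, 1401 and 1467 TPM. *Lamp1*, the main membrane glycoprotein, was at 1483, 1447, 1349 and 1344 TPM and *Lipa*, lysosomal acid lipase, at 960.3, 965, 932 and 898 TPM. The lowest member was the cathepsin *Ctsf*, at 7.18, 7.26, 6.39 and 6.97 TPM. *Lyz1*, the lysozyme of intestinal Paneth cells, was at 15.1, 18.6, 18.1 and 18.4 TPM, and *Lyz2* exceeded it 1489.6 ± 151 fold.

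Transcription factors of the TFEB family bind an E-box in promoters of lysosomal genes, and the E-box CACGTGAC was searched on both strands in RefSeq promoters, from 250 bases before to 50 bases after the start (GRCm38.p6, first listed promoter of each gene). Promoters were at hand for 35 of the 42 lysosomal genes, and 5 of them (14.3%) held it. The share was 2.33% of all 27025 promoters searched and 4.69% of those of detected genes. The 5 genes were *Ctsd*, *Lamp1*, *Glb1*, *Mcoln1* and *Atp6v0d1*. Among the other lists searched, the share was highest for immediate-early genes, 2 of 18 (11.1%), and lay from 0 to 6.9% for the rest. These list shares rest on few matches. *Ctsd* and *Mcoln1* (a lysosomal calcium channel) each held the E-box at 2 places upstream of the start. Their stretches are printed 5′ to 3′ on the gene's strand with the matches in capitals.
Ctsd, GRCm38.p6 chr7:142387898-142388077, minus strand: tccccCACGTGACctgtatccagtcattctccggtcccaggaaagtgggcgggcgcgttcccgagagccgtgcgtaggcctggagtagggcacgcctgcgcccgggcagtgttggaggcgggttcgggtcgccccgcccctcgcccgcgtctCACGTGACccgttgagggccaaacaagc
Mcoln1, GRCm38.p6 chr8:3500406-3500505, plus strand: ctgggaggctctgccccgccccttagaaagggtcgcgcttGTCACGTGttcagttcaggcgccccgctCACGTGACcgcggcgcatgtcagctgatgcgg
*Mcoln1* was at 113, 108, 111 and 102 TPM. The factors themselves were detected, *Tfeb* at 34.4, 29.3, 27.6 and 27.2 TPM, *Tfe3* at 157, 157, 116 and 124 TPM and *Mitf* at 33.5, 34.7, 32.1 and 31.7 TPM, and *Tfe3* was higher in cultures 1 and 2 than in 3 and 4.

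Macrophage identity genes were also nearly all on. Of 25, 24 were detected, with *Cd163* the exception. After *Lyz2*, the highest were *Lgals3*, galectin-3, at 4045, 4507, 4960.2 and 4485 TPM and *Cd68*. *Trem2*, a lipid-sensing receptor, was at 901, 917, 937 and 877 TPM, and its signalling adaptor *Tyrobp* at 1764, 1789.6, 1859 and 1912 TPM. *Sirpa*, the receptor for the CD47 signal that restrains phagocytosis, was at 913, 853, 861 and 899.7 TPM. *Cx3cr1*, the fractalkine receptor, was at 102, 75.9, 87 and 92.8 TPM. *Fcgr1*, the high-affinity IgG receptor, differed more than most of these, at 31.9, 42.7, 47.2 and 57 TPM, with culture 1 lowest and culture 4 highest. The median deviation of the 24 detected genes from their means was 0.01, -0.01, -0.01 and 0.02 log2 units in cultures 1 to 4. PU.1 binds a purine-rich core, and the form GAGGAAGT was searched on either strand. It was found in 0 of the 18 identity genes with a RefSeq promoter, against 3.28% of all promoters. With so few promoters and so low a share, a count of 0 cannot tell a lack of the motif from the background.

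Among 30 lineage transcription factors, 27 were detected. *Spi1*, which encodes PU.1, was at 369.6, 324, 335 and 356 TPM and *Id2*, an inhibitor of helix-loop-helix factors, at 360.1, 363, 356 and 362 TPM. *Cebpa*, a factor of myeloid differentiation, was at 145 ± 5.05 TPM and *Cebpb* at 145 ± 13 TPM. *Irf4*, a factor of alternative activation and dendritic cells, stayed at 0.173, 0.0804, 0.108 and 0.167 TPM. *Zbtb46*, which marks conventional dendritic cells, reached 0.11 TPM at most, and the granulocyte factor *Gfi1* was listed at 0.

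Of 14 colony-stimulating factors and receptors, 9 were detected. *Csf2ra*, the receptor for granulocyte-macrophage colony-stimulating factor (GM-CSF), was at 320.2 ± 13 TPM and its partner *Csf2rb* at 111 ± 6.1 TPM, and *Csf2rb* shared 28.9% of its 31-base stretches with *Csf2rb2* (43.5 ± 6.15 TPM). *Csf1*, the gene of M-CSF itself, was at 1.26, 1.53, 2.05 and 2.16 TPM. *Il34*, the other ligand of CSF1R, and *Csf2*, the gene of GM-CSF, were listed at 0 in all 4 cultures, and *Csf3* was at 0.033 TPM at most. The stem cell receptors *Flt3* and *Kit* reached 0 and 0.206 TPM.

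Programs of tissue-resident macrophages were on in part. Over the 6 resident lists, 35 of 67 genes were detected (52.2%), near the 48.4% of protein-coding symbols, and the median gene was at 1.72 TPM. Of the liver Kupffer cell genes, *Clec4f* and *Timd4* (a receptor for dying cells) reached 0.0318 and 0.143 TPM, *Vsig4* 0.28 TPM and *C6* 0, whereas *Folr2*, a folate receptor, was at 109, 107, 113 and 137 TPM and *Cd5l*, a secreted scavenger protein, at 14.5, 19.4, 19.2 and 17.9 TPM. Of the alveolar genes, *Car4*, *Ear1* and *Krt79* were listed at 0 and *Chil3* reached 0.243 TPM, but the fatty acid carrier *Fabp4* was at 137, 127, 147 and 124 TPM and *Itgax*, the integrin CD11c, at 35.3, 39.4, 37.3 and 28.2 TPM. *Pparg*, the nuclear receptor that drives alveolar macrophages, was low, at 7.16, 6.94, 9.71 and 7.82 TPM.

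Among microglial genes, *Sall1* and *Siglech* were listed at 0 and *Slc2a5* reached 0.147 TPM, while *P2ry12* was at 3.77, 3.84, 2.25 and 3.61 TPM and *Tmem119* at 7.11, 6.07, 7.52 and 6.67 TPM. Of the peritoneal genes, the transcription factor *Gata6* reached 0.0488 TPM and *Selp* was listed at 0, whereas the tetraspanin *Cd9* was at 725, 724, 737 and 703 TPM. Of the 10 red pulp genes, 7 were detected, and 2 had a mean of at least 100 TPM. That list summed to 2860 ± 311 TPM, most of it *Hmox1* (mean of 2431 TPM), described above with the heme genes. Its factor *Spic*, which heme induces through loss of BACH1, was low, at 1.43, 1.28, 1.65 and 1.6 TPM. The red pulp gene *Vcam1* reached 0.187 TPM. Osteoclast genes were split as well. *Tnfrsf11a*, the RANK receptor that starts osteoclast formation, was at 59.8, 56.7, 58.4 and 61.1 TPM and *Ckb*, a creatine kinase, at 335, 309.9, 341 and 342 TPM, yet *Calcr* and *Oscar* were listed at 0, *Ocstamp* reached 0.315 TPM and *Mmp9* 0.243 TPM. Between those groups lay *Acp5* at 9.92, 7.13, 9.04 and 9.25 TPM and *Ctsk* at 30.8, 25.7, 34.7 and 28.7 TPM, both used by osteoclasts to resorb bone.

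Genes of classical activation were mostly low. Of 27, 14 were detected, a share near the background, and 8 passed 5 TPM in all 4 cultures. The list summed to 826 ± 109 TPM. In it, 2 members had a mean of at least 100 TPM, above every gene named in this paragraph. *Nos2*, the inducible nitric oxide synthase, was at 0, 0.0374, 0 and 0.0111 TPM. *Il6*, *Il12a*, *Cxcl9* and *Ido1* were listed at 0 in every culture, and for *Il6* 3 counts would have given 0.139 TPM. *Il1b* was at 0.84, 0.691, 0.955 and 1.72 TPM and *Il12b* reached 0.0209 TPM. On the other hand, *Tnf* was at 40.8, 33.9, 42.2 and 40.7 TPM. The costimulatory genes *Cd80* (7.08 to 7.97 TPM), *Cd40* (2.94 to 4.89 TPM) and *Cd86* (1.35 to 1.89 TPM) were low.

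Alternative activation showed a similar split. Of 24 genes in the table, 10 were detected. *Arg1*, arginase, was at 0.407, 0.753, 0.46 and 0.643 TPM, *Retnla* and *Ccl17* were listed at 0, and *Chil3* and *Mgl2* reached 0.243 and 0.296 TPM. *Tgfb1* was the highest member, at 314, 305, 301 and 304 TPM, followed by the transglutaminase *Tgm2* at 97.2 ± 7.31 TPM. *Mrc1*, the mannose receptor CD206, was at 61.5, 51, 42.7 and 59.7 TPM, higher in cultures 1 and 4 than in 2 and 3. *Il4ra*, the receptor chain through which interleukin-4 acts, was at 38.1, 32.7, 27.1 and 31.7 TPM, and *Il10* was at 1.11, 0.791, 1.52 and 2.11 TPM.

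**Figure D3:**
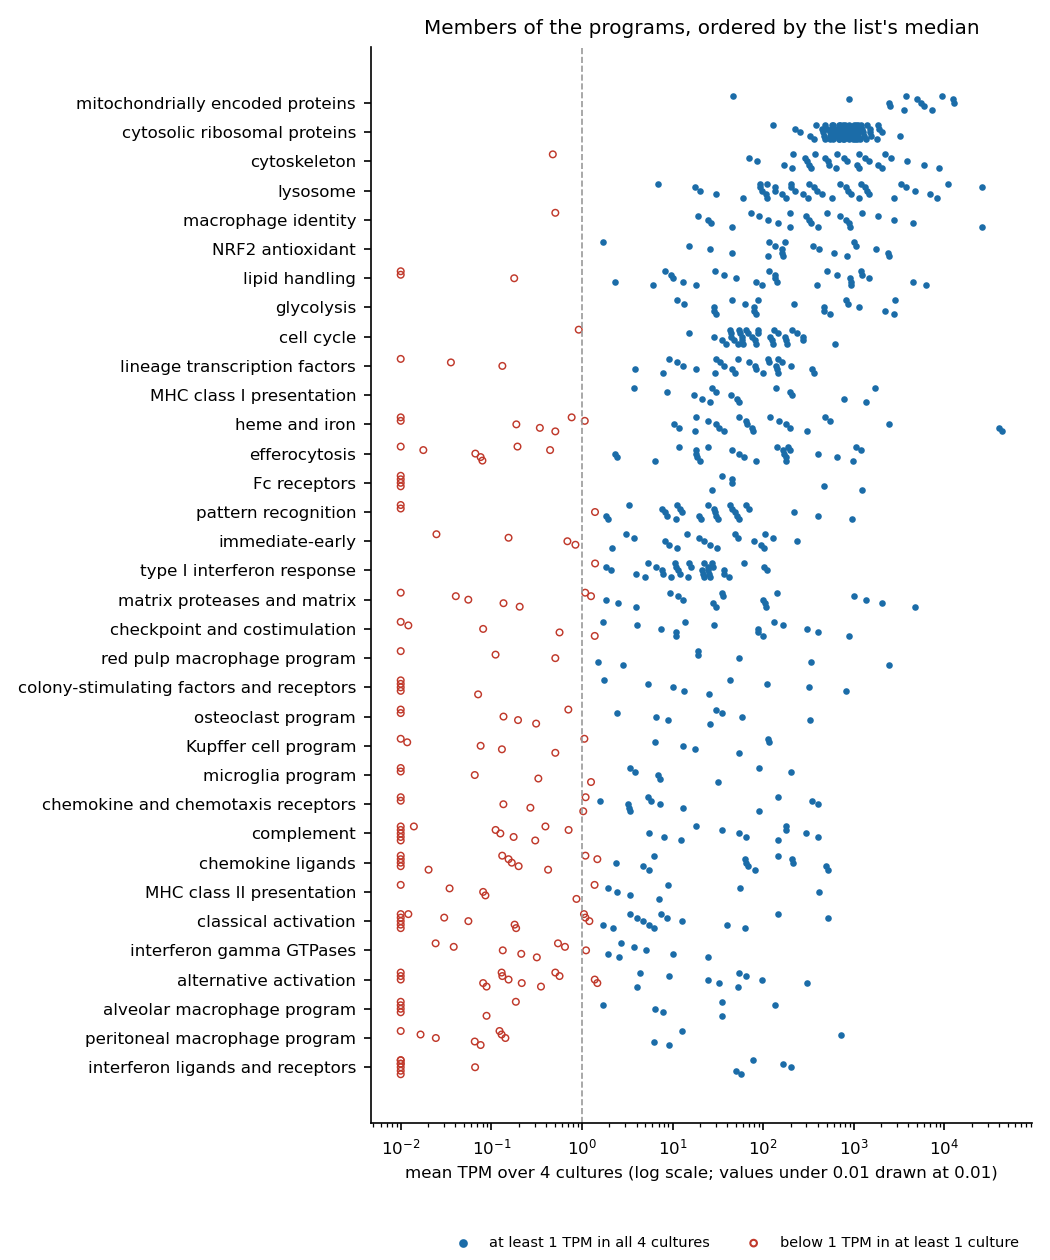
Mean TPM over the 4 vehicle cultures, on a log scale, of every member of the program and tissue-resident lists, with 1 point per gene and lists ordered by their median member. Filled points passed 1 TPM (dashed line) in all 4 cultures and open points did not. The mitochondrial, ribosomal and lysosomal lists lie wholly to the right, whereas the activation and tissue-resident lists spread from 0 to over 100 TPM.

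Receptors and ligands for uptake of dying cells (efferocytosis) were well represented. Of 32 genes, 25 were detected. *Mertk*, the receptor tyrosine kinase that binds dying cells through bridging ligands, was at 27.7, 25.7, 22.4 and 23.7 TPM, and its relative *Axl* at 11.1, 14.2, 12.2 and 10.1 TPM, while *Tyro3*, the remaining member of that family, stayed at 0.217, 0.118, 0.26 and 0.182 TPM. The bridging ligand *Gas6* was far above these receptors, at 215, 182, 157 and 190.4 TPM, and the ligand *Pros1* was at 19.7, 17.9, 17.2 and 19.9 TPM. Culture 1 was the highest of the 4 for *Mertk* and *Gas6*, and culture 3 the lowest. The scavenger receptors differed widely. *Cd36* was at 1153, 1356, 1227 and 1096 TPM, *Msr1* at 1046, 1047, 1043 and 1117 TPM and *Lrp1* at 662, 638, 647 and 667 TPM, whereas *Marco* was at 7.56, 5.86, 5.83 and 6.41 TPM. *Stab1*, a scavenger receptor that binds phosphatidylserine, was at 177, 157, 147 and 205 TPM, and *Stab2*, *Havcr1*, *Adgrb1*, *Gulp1* and *Megf10* did not pass 1 TPM in any culture.

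Fc receptors, which take up antibody-coated targets, were on for IgG and off for the other classes listed. *Fcgr3* was at 476, 472, 443 and 459 TPM, the inhibitory *Fcgr2b* at 49.2, 45.3, 42.7 and 43.3 TPM and *Fcer1g*, the signalling chain shared by activating Fc receptors, at 1295, 1188, 1206 and 1267 TPM. *Fcer1a*, the IgE receptor of mast cells, and *Pigr* were listed at 0, and *Fcer2a* and *Fcmr* reached 0.0198 and 0.0232 TPM.

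Complement genes were on for the recognition molecule and the receptors and off for most of the cascade. Of 24, 12 were detected. The C1q chains were uneven, *C1qc* at 219, 141, 157 and 195 TPM, *C1qa* at 68.2, 39.8, 43.2 and 63.8 TPM and *C1qb* at 20.2, 13.6, 17 and 21.7 TPM. All of them were higher in cultures 1 and 4 than in 2 and 3, and *C1qc* exceeded *C1qb* by 9.87 ± 0.906 fold. *C3ar1* and *C5ar1*, the receptors for the cleavage fragments of C3 and C5, were at 401 ± 9.09 and 146 ± 8.42 TPM, and properdin (*Cfp*) at 177 ± 10 TPM. *C6*, *C7*, *Cfd* and *Cfi* were listed at 0, *C4b* reached 0.299 TPM and *C3* was at 6.38, 4.86, 4.97 and 5.51 TPM.

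Presentation genes differed by class. All 16 genes of MHC class I presentation were detected, with *B2m* at 1681, 1691, 1662 and 1739 TPM and *H2-K1* at 1343, 1472, 1452 and 1209 TPM. Of 13 class II genes, 7 were detected, and 4 passed 5 TPM in all cultures. *H2-Ab1* was at 3.95, 3.16, 2.9 and 3.54 TPM, *H2-Aa* at 1.89, 2.15, 1.84 and 1.94 TPM and the invariant chain *Cd74* at 9.32, 8.17, 8.16 and 9.63 TPM. *Ciita*, the factor that switches class II genes on, reached 0.0669 TPM. Their accessory genes were higher, *H2-DMa*, which edits bound peptides, at 60.2, 57.9, 52.7 and 53.7 TPM and *Ifi30*, a lysosomal thiol reductase, at 419.7, 401, 416 and 417 TPM.

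Pattern recognition genes were detected in 27 of 30 cases. The highest was *Clec4d*, a C-type lectin, at 908, 992, 979 and 911 TPM. *Cd14*, which hands lipopolysaccharide to TLR4, was at 382, 371, 413 and 432 TPM, and *Tlr4* itself at 30.1, 31, 29.8 and 28.6 TPM. Of the Toll-like receptors, *Tlr13*, a sensor of bacterial ribosomal RNA, was the highest at 226, 219.8, 212 and 215 TPM, followed by *Tlr7* at 70.1, 59.7, 59.8 and 67.7 TPM and *Tlr8* at 55.3, 55.3, 51.4 and 51.4 TPM. *Tlr6* was higher in culture 1 than in the others, at 27.4, 15.2, 20.5 and 18.3 TPM, and *Tlr3* was at 11.8, 7.81, 7.12 and 6.45 TPM. *Tlr9* was at 2.08, 1.59, 1.98 and 1.78 TPM, *Tlr5* at 2.05, 1.49, 1.04 and 0.994 TPM, and *Tlr11* and *Tlr12* were listed at 0.

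A few chemokines accounted for most of the chemokine transcripts. Of 25, 13 were detected. *Ccl2*, the main attractant of monocytes, was at 405, 463, 580.3 and 617 TPM and *Ccl7* at 59.9, 70.8, 85.6 and 106 TPM. Both were lowest in culture 1 and highest in culture 4, and the ratio of *Ccl2* to *Ccl7* was 6.48 ± 0.438. *Ccl9* was at 449, 482, 478 and 552 TPM, *Cxcl14* at 230.4, 207, 213 and 206 TPM and *Pf4*, a chemokine also stored in platelets, at 202, 227, 189 and 221 TPM. *Ccl3* was at 141, 145, 152 and 147 TPM and *Ccl4* at 60.8, 60.7, 58.8 and 73.9 TPM. *Ccl8*, *Cxcl9* and *Cxcl13* were listed at 0, and *Cxcl5* reached 0.052 TPM. Among 18 receptors, 12 were detected. *Cxcr4* was at 359, 373, 343 and 321 TPM, whereas *Ccr2*, the receptor for CCL2 on monocytes, was at 1.71, 1.43, 1.39 and 1.79 TPM, *Ccr1* at 14.5, 12.8, 13 and 11.5 TPM, and *Ccr7* and *Ackr3* were listed at 0.

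Lipid and antioxidant genes were high. Of 30 lipid genes, 27 were detected, and beside *Apoe* the list was led by *Lpl*, lipoprotein lipase, at 1369, 1437, 1620.5 and 1481 TPM and *Plin2*, which coats lipid droplets, at 1239, 1252, 1242 and 1224 TPM. The cholesterol exporters were low, *Abca1* at 2.11, 1.93, 2.66 and 2.57 TPM and *Abcg1* at 11.6, 12, 8.36 and 6.4 TPM, as were *Apoc1*, *Apoc4* and *Apoa1*, of which the first reached 0.309 TPM and the others were listed at 0. All 20 genes of the NRF2 antioxidant list, which the factor NRF2 switches on under oxidative stress, were detected. *Prdx1*, a peroxiredoxin, was at 2256, 2541, 2499 and 2282 TPM, *Gpx1* at 1687, 1667, 1806 and 1845 TPM and *Gclm*, a subunit of the enzyme that limits glutathione synthesis, at 976, 1066, 1005 and 943 TPM. *Nqo1* was at 26.3, 27.9, 25.2 and 24.7 TPM and *Slc7a11*, the cystine importer, at 15.3, 19.5, 13.9 and 11.9 TPM. *Nfe2l2*, the gene of NRF2, was at 117, 118, 114 and 115 TPM.

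Proliferation genes were on in all cultures. Of 35 cell cycle genes, 34 were detected, and the exception was *Ccnd2*, at 1.58, 0.679, 0.911 and 0.517 TPM. *Pcna*, the sliding clamp of DNA replication, was at 589.7, 616, 618 and 626 TPM, *Mki67* at 186, 168, 165 and 176 TPM and *Top2a* at 171, 166, 178 and 193 TPM. *Ccnd1*, the cyclin that growth factors induce, was at 280.0, 251, 262 and 296 TPM, and *Cdkn1a*, the inhibitor p21, at 205, 213, 200.2 and 209.6 TPM. Of 23 immediate-early genes, 19 were detected, led by *Atf3* at 238, 244, 248 and 222 TPM and *Klf6* at 124, 133, 129.8 and 130.0 TPM. *Fos* was at 105 ± 15.3 TPM and *Jun* at 97.1, 91, 96.9 and 91 TPM, whereas *Egr1* was at 1.83, 1.28, 3.5 and 1.92 TPM and *Fosb*, *Egr3* and *Nr4a3* did not pass 1 TPM.

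Matrix and checkpoint genes held some of the more abundant transcripts. Of 25 matrix genes, 18 were detected. *Mmp12*, macrophage elastase, was at 2047, 2449.7, 2055 and 1566 TPM, with culture 2 highest and culture 4 lowest. *Adam8* was at 1338, 1381, 1387 and 1388 TPM and *Plau*, urokinase, at 919, 962, 1083 and 1023 TPM, while *Mmp2*, *Mmp3* and *Mmp9* did not pass 1 TPM. Of 20 checkpoint and costimulation genes, 15 were detected. *Lilrb4a*, an inhibitory receptor, was at 449, 400.3, 372 and 383 TPM. *Cd274*, the gene of PD-L1, was at 26.1, 32.2, 32.6 and 22.7 TPM, above 30 TPM in cultures 2 and 3 and below it in 1 and 4. *Pdcd1lg2*, the gene of PD-L2, reached 0.139 TPM.

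Markers of most other cell types were close to absent. Over 15 lists, 18 of 125 genes were detected (14.4%), 39 were at 0 in all 4 libraries, and the median gene was at 0.0297 TPM. No member of the natural killer cell, erythroid, mast cell and basophil, stromal or adipocyte lists was detected, and the summed level over the erythroid list ranged from 0 to 0.88 TPM. The T cell genes *Cd3e*, *Cd3g* and *Trac* and the B cell gene *Jchain* were listed at 0, and the members detected were *Cd28* (3.42 to 5.37 TPM) and *Ighm* (2.31 to 3.17 TPM). The dendritic cell list held 1 detected member of 11, *Batf3* (2.72 to 5.54 TPM). The monocyte list summed to 28.5 to 30.6 TPM, most of it *Treml4*, and *Ly6c2* reached 0.162 TPM. Detected members were 4 of 10 in the monocyte list (40%) and 3 of 7 in the endothelial list (42.9%). Both shares were near the 48.4% of protein-coding symbols.

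The neutrophil list was uneven. *S100a8* was at 52.7, 55.6, 62.9 and 52.2 TPM and *Mmp8*, neutrophil collagenase, at 102, 107, 86.9 and 98.6 TPM, whereas *S100a9*, whose protein pairs with S100A8, was at 0.975, 0.358, 0.102 and 0 TPM, *Ly6g*, *Camp* and *Retnlg* were listed at 0 and *Elane* reached 0.304 TPM. The counts were 433 to 572 per library for *S100a8* and 0 to 10 for *S100a9*. Among stem and endothelial markers, *Procr* was at 41.7, 51.1, 50.4 and 34.3 TPM, *Eng* at 30.1, 31.3, 29.2 and 34 TPM and *Vwf* at 26.3, 30.3, 26.6 and 24.3 TPM, while *Pecam1* reached 0.893 TPM, *Emcn* was listed at 0 and *Tek* reached 0.0331 TPM. Of the remaining lists, the megakaryocyte genes held 1 detected member of 7, *Treml1* (4.95 to 6.3 TPM), the eosinophil genes 2 of 6, *Ccr3* and *Siglecf*, and the osteoblast genes 1 of 6, *Runx2* (4.32 to 5.59 TPM). The cell of origin of these traces was not tested.

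The spread between cultures was small for most genes. The common biological coefficient of variation, estimated by edgeR over 12906 genes, was 0.0612. Among genes with a mean of 100 to 1000 TPM, the median coefficient of variation was 4.05%, against 1.13% from counting alone, and it was 6.19% for 10 to 100 TPM and 15.2% for 1 to 10 TPM. Of 9634 symbols with a mean of at least 5 TPM, 101 (1.05%) differed by 2-fold or more between the highest and lowest culture on the log2(TPM + 0.1) scale, and of the 9172 protein-coding symbols among them 48 (0.523%) did. Without culture 1, 48 symbols did so. The 15 symbols with the largest SD were mostly short RNAs and pseudogenes. Of these, 2 were protein coding and 8 had no transcript of 300 bases or more, and *Rpl35a-ps6* led them at 46.2, 134, 39.1 and 0 TPM, with all of its 31-base stretches found under other symbols too.

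Among protein-coding genes at that level, those with the largest SD, a selection added after their values were seen, included *Gm50478* at 0, 29, 12.5 and 11 TPM and the histone gene *H2ac19* at 0, 12.2, 8.21 and 5.94 TPM, both with all of their stretches shared with other symbols. *Glis3*, a zinc finger factor, was at 4.16, 10.5, 7.93 and 9.68 TPM, lowest in culture 1. *Lamb2*, a laminin chain, was at 8.65, 5.79, 2.95 and 3.21 TPM, highest in culture 1. *Zbp1* and *Oas1g*, genes that interferon induces, were at 2.88, 4.86, 5.92 and 7.88 and 3.55, 7.22, 9.2 and 10.3 TPM, both lowest in culture 1, and *Oas1g* shared 64.7% of its stretches with *Oas1a*.

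Spread was then summarized by program, as the median over members with a mean of at least 1 TPM of each culture's deviation from the gene's mean. Over the 28 programs, the range between the highest and lowest culture had a median of 0.09 log2 units, from 0.01 for interferon ligands and receptors to 0.37 for the type I interferon response, and complement came next at 0.19. Culture 1 was the lowest of the 4 for 3 programs and the highest for 10. The deviations of the complement list were 0.11, -0.09, -0.04 and 0.06 in cultures 1 to 4, and 1 of its 12 members was lowest in culture 1. For cytosolic ribosomal proteins, all 79 of which were detected, they were -0.05, -0.06, 0.02 and 0.09, and the list summed to 68271, 67934, 72409.8 and 75635 TPM. For the 13 genes encoded by mitochondria the deviations were 0.09, 0.03, -0.04 and -0.06, and culture 1 was the highest for 10 of them and the lowest for 3, *mt-Nd3*, *mt-Nd6* and *mt-Atp8*.

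**Figure D4:**
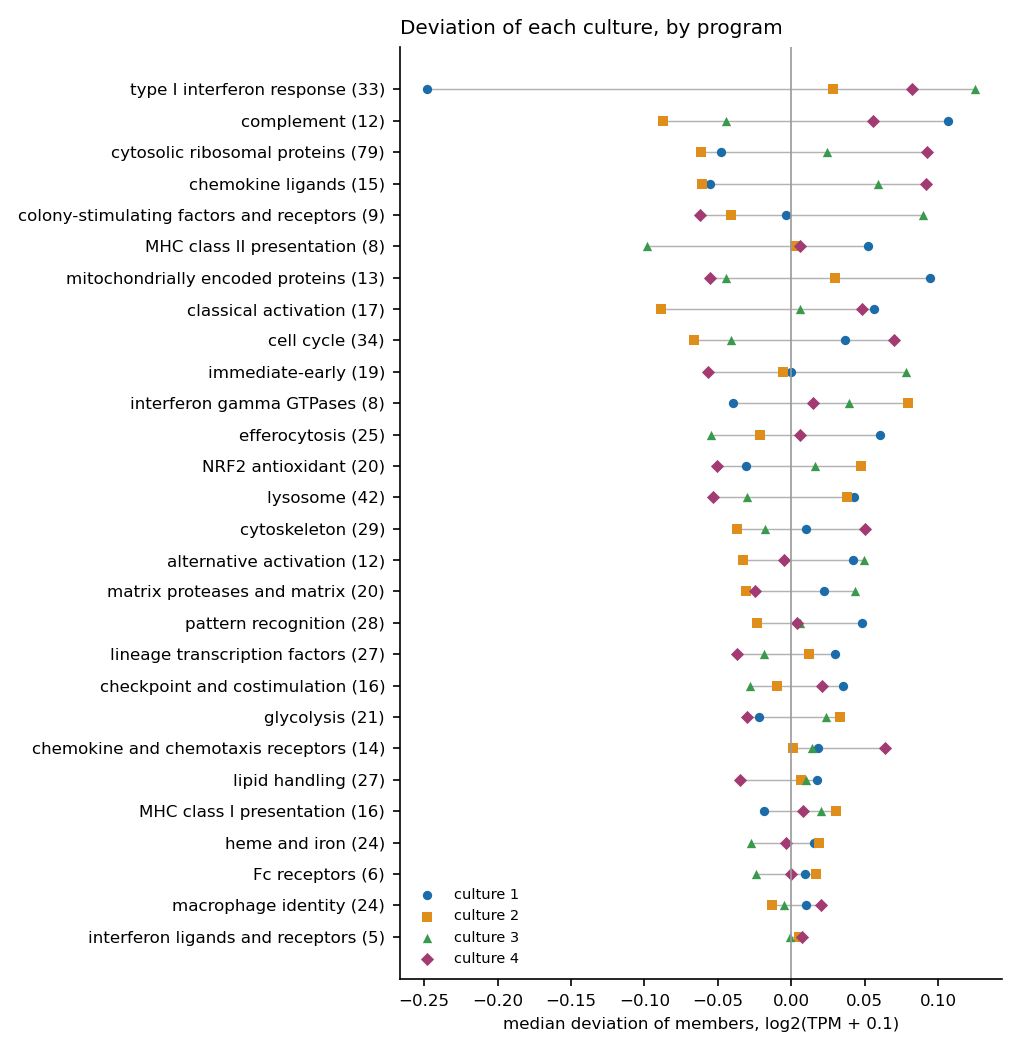
Median deviation of each vehicle culture from the gene means, in log2(TPM + 0.1), for the 28 programs, with the number of members at a mean of 1 TPM in parentheses and a line from the lowest to the highest culture. The type I interferon response of culture 1 lies farthest from 0, at -0.25, and the programs at the bottom differ by less than 0.1 between cultures.

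Type I interferon response genes are induced through the receptor IFNAR and a complex that holds STAT2 and IRF9, and a low level of them is known in resting macrophages. The list is described further because its spread was the widest of the 28, a choice made from these values. Of 33 genes, 32 were detected, at a median of 16.1 TPM. The median deviations were -0.25, 0.03, 0.12 and 0.08 log2 units in cultures 1 to 4, against 0.02, -0.01, -0.01 and 0.00 over all 12063 symbols with a mean of at least 1 TPM. In 30 of the 33, culture 1 was the lowest of the 4, and the exceptions were *Eif2ak2*, *Mx2* and *Stat2*. Among the 12063 symbols, culture 1 was lowest for 24.2% and highest for 36.6%. Without culture 1, the range of the list's medians was 0.065 log2 units in place of 0.37.

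*Isg15*, a ubiquitin-like modifier, was at 11.2, 19.4, 18.4 and 15.4 TPM, and *Ifit3*, which restrains viral RNA, at 4.8, 9.61, 9.72 and 6.61 TPM. *Irf7*, the factor that amplifies interferon production, was at 15.9, 23.8, 25.3 and 24.4 TPM. In each of these culture 1 lay below the other three, and the order of the others differed from gene to gene. *Oas1a*, a sensor of double-stranded RNA, was at 31.4, 36.8, 39.6 and 41.5 TPM and *Ifi44* at 9.32, 12.7, 18.8 and 17.8 TPM. *Ifi27l2a*, which had the highest mean of the list, was at 83.1, 96, 119 and 138 TPM, and *Bst2* (tetherin, which holds budding virus at the cell surface) was nearly level at 99.8, 101, 101 and 109 TPM. Of the 28 members with a mean of at least 5 TPM, 3 differed by 2-fold or more, *Ifi44*, *Ifit3* and *Zbp1*. At that level, 1.05% of all symbols and 0.523% of protein-coding symbols did so. Because the list was chosen for its spread in these values, that comparison is no separate support. *Ifit3* shared 56.3% of its 31-base stretches with *Ifit3b*.

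**Figure D5:**
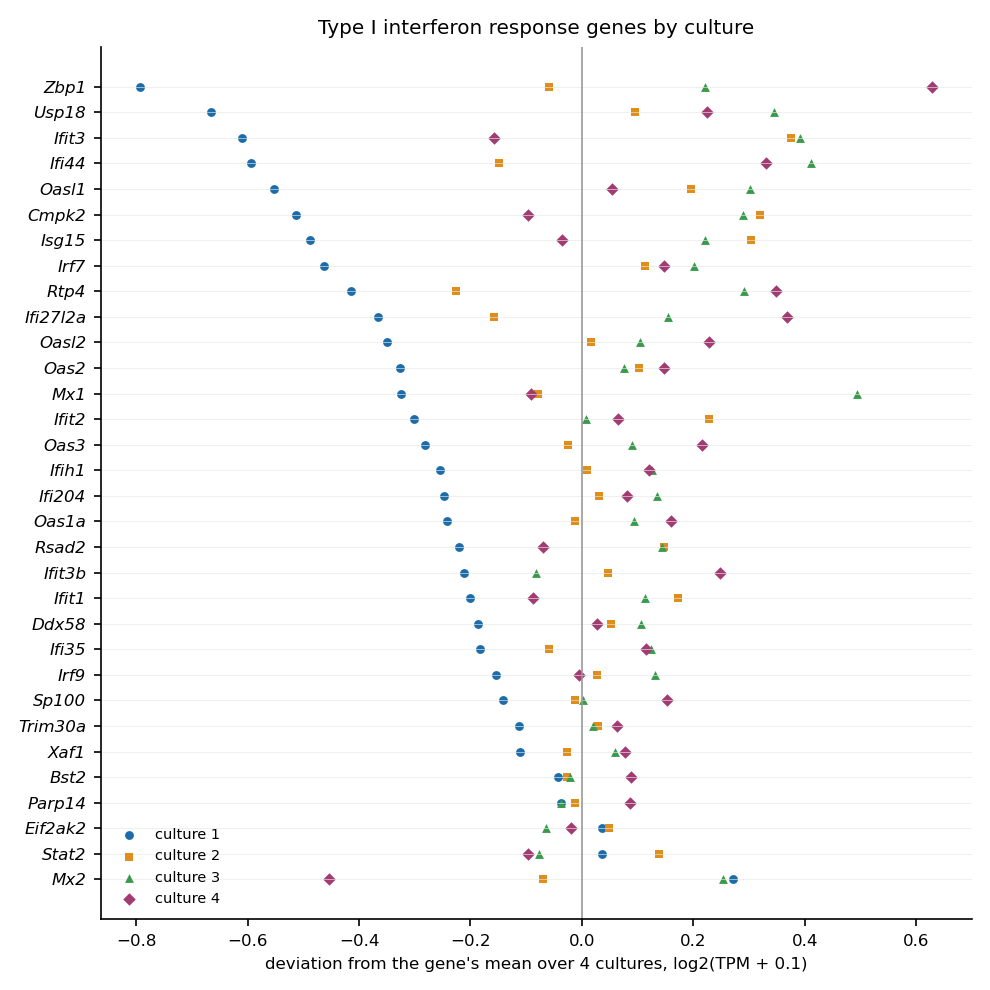
Deviation of each vehicle culture from the gene's mean, in log2(TPM + 0.1), for 32 of the 33 type I interferon response genes, ordered by culture 1. The circles of culture 1 lie left of the other 3 cultures for 29 genes, from *Zbp1* (-0.79) to *Parp14*, and not in *Eif2ak2*, *Stat2* and *Mx2*.

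The interferons were silent or nearly so and their receptors varied little across cultures. *Ifna1*, *Ifna2*, *Ifna4*, *Ifng* and both lambda interferons listed were at 0, and *Ifnb1* was at 0, 0.141, 0.0607 and 0.0627 TPM. *Ifnar1* was at 77.7, 79.7, 76.3 and 75.8 TPM and *Ifnar2* at 154, 167, 170.0 and 168 TPM, and the leading transcript of *Ifnar2* shared 63.1% of its stretches with *Gm21970*. *Irf9*, a part of the complex that carries their signal to the nucleus, was at 23.2, 26.3, 28.2 and 25.7 TPM. The GTPases that interferon gamma induces were low, with 7 of 15 detected, and their median deviations were -0.04, 0.08, 0.04 and 0.01.

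Promoters of the interferon response genes were searched for GAAANNGAA, the core of the interferon-stimulated response element, on both strands and with overlapping matches counted. RefSeq promoters were at hand for 23 of the 33 genes, and 14 of them (60.9%) held it, against 8.57% of all promoters and 7.23% of those of detected genes. Among the other lists searched, the share ranged from 0 for cell cycle genes to 22.2% for macrophage identity genes. *Ifit3* and *Ifit3b*, both among the 14, have the same upstream stretch and so are not separate cases. The motif was present for *Eif2ak2* and *Stat2* too, which were not lowest in culture 1. Upstream stretches of 3 of the genes that were lowest in culture 1 are printed 5′ to 3′ on the gene's strand, with the matches in capitals.
Isg15, GRCm38.p6 chr4:156200837-156200936, minus strand: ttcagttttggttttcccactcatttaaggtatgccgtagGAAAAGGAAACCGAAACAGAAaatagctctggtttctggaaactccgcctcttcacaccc
Ifit3, GRCm38.p6 chr19:34583334-34583455, plus strand: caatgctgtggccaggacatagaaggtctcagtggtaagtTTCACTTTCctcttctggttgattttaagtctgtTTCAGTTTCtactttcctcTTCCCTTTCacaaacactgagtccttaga
Oas1a, GRCm38.p6 chr5:120907526-120907585, minus strand: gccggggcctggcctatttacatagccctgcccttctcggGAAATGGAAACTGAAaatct
*Isg15* and *Ifit3* each had 3 matches and *Oas1a* had 2, overlapping in *Isg15* and *Oas1a*. *Ifit3* matches read TTC first because they lie on the opposite strand.

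Genes that the study followed in macrophages, as protein or as RNA, were also placed in order. Of these, *Gas6*, *Axl* and *Pros1* were followed there as RNA, and *Mertk* as both RNA and protein. By mean TPM, the order was *Hmox1*, *Adgre1*, *Itgam*, *Gas6*, *Mrc1*, *Cd274*, *Mertk*, *Pros1* and *Axl*, all detected in the 4 vehicle cultures. *Nos2*, *Il6* and *Arg1* stayed below 1 TPM in every one. The ranges over cultures of *Cd274* (22.7 to 32.6 TPM) and *Mertk* (22.4 to 27.7 TPM) overlapped, so these neighbours were not separated beyond their spread. No other neighbours in that order overlapped. *Itgam* shares much of its sequence with *Gm49368*, as given above, so its level and its place below *Adgre1* are less certain.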

How the data were processed

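Vehicle libraries of BMDM were described without a contrast, so no test between groups was run, and the only test was Dixon's for a culture apart from the others. Per the labels and the submitters' processing notes, the authors made FASTQ files with bcl2fastq 2.20.0.422, trimmed reads with Trim Galore 0.6.7 and cutadapt 3.4, aligned with STAR 2.7.9a and quantified transcripts of GRCm39 with Salmon 1.10.1, and the notes also list R 4.2.2. The deposited transcript tables hold, per library, TPM and estimated counts, which the authors' quantification splits over transcripts that share sequence, so levels of near-identical genes are uncertain. No column of the authors' own comparisons was used. From there, TPM of 142434 transcripts were summed per symbol. A symbol was called detected at 1 TPM or more in all 4 libraries, folds between cultures were taken on log2(TPM + 0.1) among symbols with a mean of at least 5 TPM, and program medians among members with a mean of at least 1 TPM. Counts were rounded to whole numbers for edgeR 4.0.16 (R 4.3.3), which gave the biological coefficient of variation and TMM factors. DESeq2 1.42.0 gave relative log expression factors, and summaries used Python 3.11.15, pandas 2.3.3 and numpy 2.4.6.

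Gene lists, members and named genes were chosen with earlier results of these data known. The genes named were the 20 with the highest mean TPM, the defining markers and the heme and iron genes. Of each program or tissue-resident list, the 3 highest and up to 5 undetected members were named. Of the lists of other cell types, the highest and first undetected members were named. Genes that the study followed as protein or RNA, the 15 symbols with the largest SD and members of the most variable lists completed them. Further members were added after their values were seen. Values of 4 listed genes are not reported here. Gene positions, transcript types and untranslated regions came from GENCODE vM39 (GRCm39), which held 99.1% of the transcripts in the files and is a later release than theirs, and promoters came from RefSeq tables on GRCm38.p6, whose coordinates are not interchangeable with GRCm39. Intervals and the level that 3 counts would give cover counting error only. Alternatives were other TPM minimums, CPM with TMM, relative log expression or library size scaling, TPM without mitochondrially encoded genes, sums per gene ID, medians, other pseudocounts and leaving out each culture, and limits to protein-coding symbols or to longer transcripts were added after seeing the data. The steps that compute spread and detection were tested on simulated data.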

Additional observations from a re-analysis of the deposited data

Results flagged for a closer look

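In 10 of 236 values tested, the highest or lowest culture stood apart from the other three, with a gap that took a larger part of the whole range than Dixon's 95% critical value allows for 4 values. That critical value is set to mark about 1 in 20 groups by chance. Some tested genes were picked for their spread in these values, and all values share the same 4 libraries. The count therefore cannot be set against that rate. Culture 1 was lowest, with the others close together, for 3 genes. *Irf7* was at 15.9, 23.8, 25.3 and 24.4 TPM in cultures 1 to 4. *Ifnar2*, a chain of the type I interferon receptor, was at 154, 167, 170.0 and 168 TPM, and the protease *Adam8* at 1338, 1381, 1387 and 1388 TPM, where culture 1 lay only slightly below the rest. Of these, *Irf7* belongs to the interferon response list, whose median was lowest in culture 1. Culture 4 was highest for 5 values. *Bst2* was at 99.8, 101, 101 and 109 TPM, the chemokine *Ccl4* at 60.8, 60.7, 58.8 and 73.9 TPM, the cell cycle kinase *Cdk4* at 264, 269, 266 and 296 TPM and the scavenger receptor *Msr1* at 1046, 1047, 1043 and 1117 TPM. The remaining one was a small nucleolar RNA, ENSMUSG00000118905, at 0, 0, 0 and 21.1 TPM. *Slc11a2*, the endosomal iron transporter, was highest in culture 3, at 22.7, 22.8, 32.4 and 21.6 TPM, and the small nuclear RNA *Gm22836* was highest in culture 1, at 29.9, 0, 0 and 0 TPM. The longest transcripts of these small RNAs have 71 and 61 bases. With 0 in the other cultures, the gap of these small RNAs took the whole range.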

How the results depend on the processing

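No paired analysis was possible because the report holds 1 group and no comparison between groups. The number of detected symbols stayed within 1.5 times of 11425 under every alternative tried (9319 to 12846), and was 11495 to 11544 when 1 culture was left out. The share of TPM of the top 20 symbols moved from 23.8% to 22.1% without mitochondrially encoded genes and to 16.4% in CPM, which is not scaled for length, and that of the top 100 from 39.4% to 36.1% and 28.5%. Without 1 culture these shares were 23.7% to 23.9% and 39.3% to 39.5%. The count of symbols with a 2-fold difference depended most on the filter. It was 101 at a mean of at least 5 TPM, 716 at 1 TPM, 11 at 20 TPM, 5913 with no filter, 48 for protein-coding symbols alone, 60 in CPM with TMM or relative log expression factors and 61 in CPM on library size. It was 48 to 80 without 1 culture, the lowest without culture 1. The range of the interferon response medians, 0.37 log2 units, was 0.065 to 0.37 without 1 culture, again lowest without culture 1, and 0.35 to 0.40 under the other alternatives. Of 88 values of program spread in all, 6 moved. Beside the interferon response without culture 1, these were alternative activation, pattern recognition, lineage transcription factors and MHC class I presentation in CPM and the matrix list at a mean of at least 5 TPM. Of 1358 alternative values of named genes, 95 moved by more than 1 SD, all of them when mitochondrially encoded genes were left out, which raises every other level. Of 169 counts of program members, 4 moved, all at a minimum of 5 TPM, where 8 classical activation genes, 4 MHC class II genes, 7 chemotaxis receptors and 2 interferon gamma GTPases were left. Genes near 1 TPM rest on about 40 counts, and the depth limits what can be said of them.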

Other observations

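Glycolysis was not described above. All 21 listed genes were detected, and the list summed to 12871 ± 135 TPM. *Gapdh*, which oxidizes glyceraldehyde phosphate, was at 2849, 2799.9, 2762 and 2883 TPM, with 89.8% of its 31-base stretches shared with other symbols. *Aldoa*, an aldolase, was at 2176, 2220.4, 2226 and 2139 TPM, and *Pkm*, a pyruvate kinase, was at 2766, 2819, 2805 and 2719 TPM and shared 50.6%. The median deviations of the list were -0.02, 0.03, 0.02 and -0.03 log2 units in cultures 1 to 4.

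Cytoskeletal genes formed 4.03% of TPM, with 29 of 30 detected. Beside *Actb* and *Tmsb4x*, *Vim*, the intermediate filament vimentin, was at 3750.3, 3800.2, 4064 and 3849 TPM. The list's median deviations were 0.01, -0.04, -0.02 and 0.05.

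Of the GTPases that interferon gamma induces, which attack the vacuoles of intracellular microbes, *Irgm1* was at 23, 26.1, 25.7 and 24.2 TPM, *Igtp* at 10.1, 10.6, 10.4 and 8.89 TPM and *Irgm2* at 5.25, 4.97, 5.29 and 4.98 TPM. The receptor chains for that cytokine were detected at higher levels, *Ifngr1* at 51.4, 48.3, 49.9 and 50.2 TPM and *Ifngr2* at 54.6, 52.2, 59 and 61.3 TPM, while *Ifng* itself was listed at 0.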
